A study of Mus musculus with 18 samples.

Results

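The response of control CD4+ T cells to a high dose of TGF-b was read by RNA sequencing from 4 of the 18 libraries of the series, 2 cultured with 2 ng/ml TGF-b and 2 cultured without it. The libraries were chosen by their labels, WT at 2 ng/ml and WT at 0 ng/ml, each as replicates 1 and 2. They hold naive CD4+ T cells, purified by FACS from the spleen of C57BL/6 mice with Cd4Cre, a recombinase transgene active in T cells from their development on. Culture with anti-CD3 and anti-CD28 activated the cells, and RNA was taken on day 4. WT here means the genotype labelled Cd4Cre, so both doses share the transgene and the activation. Of the other libraries, 2 are WT at 0.2 ng/ml, 6 are cells in which Cd4Cre acts on floxed Egln1, Egln2 and Egln3 (tKO) at the same 3 doses, and 6 are wild-type cells of a second experiment at 2 ng/ml with vehicle or with 1 mM DMOG, an inhibitor of the enzymes those genes encode. The labels do not say whether replicates came from separate mice, so p-values measure only the spread between these samples.

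TGF-b is a secreted cytokine that reaches T cells bound to a latency peptide and signals after its release. The active form brings together the receptor kinases TGFBR2 and TGFBR1, which phosphorylate SMAD2 and SMAD3. These enter the nucleus with SMAD4, switch genes on or off, and also induce inhibitors that shut the signal down. In CD4+ T cells TGF-b is known for turning naive cells into regulatory T cells, for restraining the Th1 programme, and for inducing the integrin CD103.

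Values are FPKM as the authors deposited them, fragments scaled to transcript length and to the fragments mapped, which allow levels of different genes to be compared per length. Differences are 2 minus 0 ng/ml on the log2(FPKM + 1) scale, ± SE, on which a change of a weakly expressed gene looks smaller than it is. Adjusted p-values are from limma's moderated test, fitted on all 12 libraries of the first experiment with Benjamini-Hochberg adjustment over 10354 genes, and "rose" and "fell" are used for an adjusted p under 0.05. At 2 ng/ml, 807 genes were higher and 819 lower than at 0 ng/ml, which is 7.79% and 7.91% of the genes tested. Counts of list members below are to be read beside these shares. A difference of 1 log2 unit or more was reached by 563 of those higher and 388 of those lower. The median difference over all genes was -0.02. The counts fell to 371 higher and 289 lower without WT at 0 ng/ml replicate 1, to 382 and 349 without WT at 0 ng/ml replicate 2, to 535 and 597 without WT at 2 ng/ml replicate 1, and to 406 and 332 without WT at 2 ng/ml replicate 2. Both libraries at 2 ng/ml lay on the same side of both at 0 ng/ml for all 1626 called genes, and for 6261 of all genes tested (60.5%). That the doses of a called gene lay apart, where said below, therefore adds nothing to its call.

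**Figure D1:**
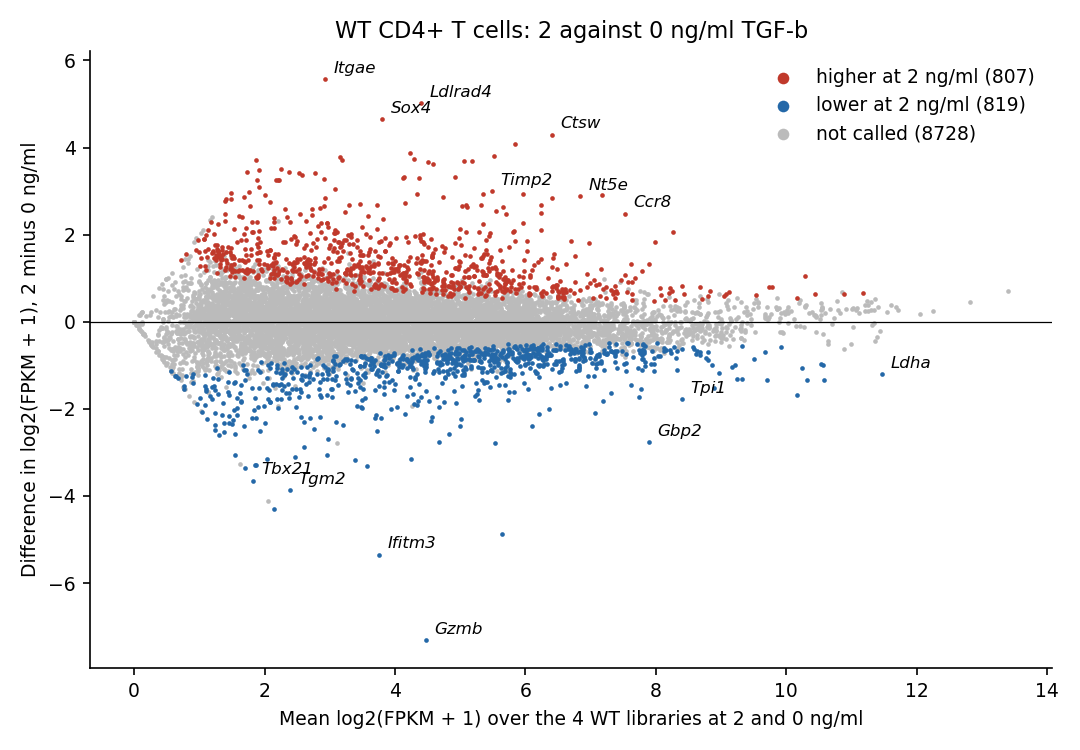
Each point is 1 of 10354 genes in WT cells, with its mean log2(FPKM + 1) over the 4 libraries on the x axis and the difference between 2 and 0 ng/ml TGF-b on the y axis. Red points (807) were called higher and blue points (819) lower at 2 ng/ml, and Itgae and Gzmb mark the ends of the scale.

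FPKM sums, which are already scaled and do not measure library size, ran from 632785 to 676963 in the 4 libraries, and replicates correlated across genes at r = 0.970 at 2 ng/ml and 0.983 at 0 ng/ml. The steps of low values put the depth of the libraries at 0.798 and 0.941 at 2 ng/ml, against 1 and 0.802 at 0 ng/ml, relative to WT at 0 ng/ml replicate 1; absolute depth is unknown. T cell markers were abundant, with 3758 and 3462 FPKM summed over 11 genes at 2 ng/ml, against 3406 and 3457 FPKM at 0 ng/ml. Of 11 myeloid markers 8 were listed at 0 in all 4 libraries, as were 4 of 5 NK cell markers. Markers of dendritic cells and MHC class II summed to 1016 and 317 FPKM at 2 ng/ml, against 774 and 466 FPKM at 0 ng/ml, and B cell markers to 66.4 and 19.2 FPKM at 2 ng/ml, against 44.7 and 16.0 FPKM at 0 ng/ml. In both sums the libraries of a dose differed, replicate 1 being the higher. The sums overlapped between the doses and none of their tested members passed; their part in the results was not tested. The WT libraries carried at most a trace of transcripts of the Y chromosome, which the 3 tKO replicate 1 libraries expressed. In bulk RNA, fewer cells of a type and less RNA per cell cannot be told apart.

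The promoters shown here are those of genes whose changes are described below, 250 bases before to 50 after the first start RefSeq lists, from the GRCm38.p6 build, in the direction of the gene. The genes in the first set fell, and the core of the site bound by hypoxia-inducible factors (HIF), ACGTG, is in capitals wherever it stands on either strand, with overlapping matches joined. Ldha lies at chr7:46845554-46845853 (+), Pgk1 at chrX:106186850-106187149 (+), Slc2a1 at chr4:119108495-119108794 (+) and Bnip3 at chr7:138909457-138909756 (-).
Ldha: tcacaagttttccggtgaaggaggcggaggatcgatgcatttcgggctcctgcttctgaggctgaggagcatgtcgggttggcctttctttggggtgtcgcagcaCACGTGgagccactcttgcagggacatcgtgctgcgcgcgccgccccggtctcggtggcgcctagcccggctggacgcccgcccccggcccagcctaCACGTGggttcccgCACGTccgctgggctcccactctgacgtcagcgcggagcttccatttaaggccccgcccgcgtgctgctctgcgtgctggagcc
Pgk1: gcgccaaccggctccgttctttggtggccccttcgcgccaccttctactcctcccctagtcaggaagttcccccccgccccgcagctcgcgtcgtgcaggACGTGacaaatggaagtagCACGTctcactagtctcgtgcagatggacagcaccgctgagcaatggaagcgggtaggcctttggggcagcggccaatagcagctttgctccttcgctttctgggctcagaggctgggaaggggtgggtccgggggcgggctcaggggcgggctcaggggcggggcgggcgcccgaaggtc
Slc2a1: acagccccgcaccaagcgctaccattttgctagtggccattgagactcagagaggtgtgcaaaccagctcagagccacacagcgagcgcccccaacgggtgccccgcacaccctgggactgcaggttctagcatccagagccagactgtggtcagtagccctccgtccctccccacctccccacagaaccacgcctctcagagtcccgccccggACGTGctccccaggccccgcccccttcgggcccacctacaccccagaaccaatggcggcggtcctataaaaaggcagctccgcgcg
Bnip3: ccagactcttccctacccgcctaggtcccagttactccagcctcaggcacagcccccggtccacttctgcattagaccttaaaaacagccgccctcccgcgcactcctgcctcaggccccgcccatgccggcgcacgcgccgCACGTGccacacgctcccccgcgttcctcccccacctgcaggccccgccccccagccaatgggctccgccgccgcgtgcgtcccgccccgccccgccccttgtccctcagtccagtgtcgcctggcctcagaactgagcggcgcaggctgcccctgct
Ldha held 5 matches, Pgk1 and Bnip3 2 each and Slc2a1 1, where a stretch CACGTG counts as 2, 1 on each strand. The 2 of Bnip3 are such a stretch, those of Pgk1 stand apart. Of all 32851 promoter windows, 19.6% hold at least 1. Of the 21 genes of the glycolysis list with a window, 11 held a match in the first window, as did 12 of 21 HIF targets outside glycolysis, against 19.7% of all 27025 genes. A match describes the letters and is not a site.

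The second set holds 2 genes that rose, with the SMAD box CAGAC in capitals on either strand, and 2 interferon-induced genes that fell, with the repeat of interferon-stimulated response elements (GAAA, any 2 bases, GAAA) in capitals on either strand. Sox4 lies at chr13:28953650-28953949 (-), Ccr8 at chr9:120091883-120092182 (+), Ifitm3 at chr7:141010695-141010994 (-) and Gbp2 at chr3:142620413-142620712 (+).
Sox4: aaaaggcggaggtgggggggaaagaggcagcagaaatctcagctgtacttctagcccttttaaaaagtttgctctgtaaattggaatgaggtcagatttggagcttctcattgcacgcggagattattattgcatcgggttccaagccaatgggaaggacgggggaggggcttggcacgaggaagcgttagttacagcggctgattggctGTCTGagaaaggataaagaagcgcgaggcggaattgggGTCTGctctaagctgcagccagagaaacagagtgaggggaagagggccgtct
Ccr8: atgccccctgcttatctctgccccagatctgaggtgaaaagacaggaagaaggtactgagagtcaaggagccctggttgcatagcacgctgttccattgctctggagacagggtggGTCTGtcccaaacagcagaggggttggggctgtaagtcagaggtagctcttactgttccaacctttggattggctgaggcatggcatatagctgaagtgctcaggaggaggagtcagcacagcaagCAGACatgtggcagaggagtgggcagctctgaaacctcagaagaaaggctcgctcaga
Ifitm3: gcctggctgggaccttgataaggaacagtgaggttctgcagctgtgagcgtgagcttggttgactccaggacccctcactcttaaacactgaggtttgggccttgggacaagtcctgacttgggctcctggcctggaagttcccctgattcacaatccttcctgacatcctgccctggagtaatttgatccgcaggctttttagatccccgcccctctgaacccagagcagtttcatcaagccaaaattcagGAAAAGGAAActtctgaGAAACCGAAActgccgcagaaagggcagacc
Gbp2: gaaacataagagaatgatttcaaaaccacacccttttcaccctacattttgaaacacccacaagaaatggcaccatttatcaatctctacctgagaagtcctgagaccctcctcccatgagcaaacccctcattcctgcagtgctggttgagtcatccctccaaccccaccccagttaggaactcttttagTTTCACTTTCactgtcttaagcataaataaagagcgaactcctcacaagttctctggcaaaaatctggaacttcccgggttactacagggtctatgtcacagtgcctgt
CAGAC stands in 49.6% of all windows, with 2 matches each in Sox4 and Ccr8. Among 20 TGF-b induced targets with a window 15 held CAGAC, and among 10 feedback inhibitors 5, against 49.7% of all genes. The interferon repeat stands in 3.44% of all windows, with 2 matches in Ifitm3 and 1 in Gbp2. Of 26 interferon-induced genes with a window, 17 held it, against 3.49% of all genes. The lists were drawn up from what the genes are known to respond to, but with earlier results of these data known. List counts of rises and falls are therefore not an independent check.

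In the TGF-b pathway itself, both TGF-b receptor genes and 8 of 13 inhibitors rose at 2 ng/ml, 1 inhibitor fell, and no SMAD transducer passed. Of 6 tested genes for TGF-b ligands and their presentation, 0 rose and 1 fell. Those that fell numbered 0 without WT at 2 ng/ml replicate 1. Tgfb1, the ligand T cells make, had 82.3 and 66 FPKM at 2 ng/ml, against 92.1 and 82.3 FPKM at 0 ng/ml (log2 difference -0.24 ± 0.17, adjusted p = 0.391), and the doses overlapped. Tgfb2 was listed at 0 in all 4 libraries. The gene that fell, Lrrc33, encodes a protein that tethers latent TGF-b on myeloid cells, and it had 12.2 and 16.6 FPKM at 2 ng/ml, against 28.7 and 33.8 FPKM at 0 ng/ml (log2 difference -1.08 ± 0.24, adjusted p = 0.00913). Lrrc33 did not pass without WT at 2 ng/ml replicate 1 (adjusted p = 0.0748) or without WT at 0 ng/ml replicate 2 (adjusted p = 0.0850).

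Both kinase receptors of TGF-b rose. Tgfbr1, which encodes the type I receptor, had 19.3 and 17.3 FPKM at 2 ng/ml, against 4.24 and 5.65 FPKM at 0 ng/ml (log2 difference 1.71 ± 0.33, adjusted p = 0.00413). Tgfbr2, which encodes the type II receptor, had 38.4 and 38.6 FPKM at 2 ng/ml, against 13.1 and 13.3 FPKM at 0 ng/ml (log2 difference 1.48 ± 0.30, adjusted p = 0.00486). The doses did not overlap for either gene, and the receptor levels at 2 ng/ml lay close together within each pair. Acvrl1, an alternative type I receptor best known from blood vessels, went the other way, with 1.4 and 0.32 FPKM at 2 ng/ml, against 8.3 and 4.61 FPKM at 0 ng/ml (log2 difference -2.02 ± 0.36, adjusted p = 0.00225). Of 10 tested members, 4 rose, 1 fell and 5 missed the threshold, with a median log2 difference of 0.94. Members that rose numbered 2 without WT at 0 ng/ml replicate 1. The other 2 that rose were the activin receptor genes Acvr1 and Acvr2a, at log2 differences of 1.18 and 1.42. Acvr1 did not pass without WT at 0 ng/ml replicate 1, without WT at 2 ng/ml replicate 1, without WT at 0 ng/ml replicate 2 or without WT at 2 ng/ml replicate 2 (adjusted p between 0.0616 and 0.202). Acvr2a did not pass with pseudocount 0.1, with no filter on low values, without WT at 0 ng/ml replicate 1, without WT at 2 ng/ml replicate 1, without WT at 0 ng/ml replicate 2 or without WT at 2 ng/ml replicate 2 (adjusted p between 0.0694 and 0.176). With a pseudocount of 0.1 the difference of Acvr2a was 2.34. None of 6 tested SMAD transducers passed, with a median of 0.12; over all genes limma gave 3049 with an unadjusted p under 0.05. Smad2, which carries the TGF-b signal, had 9.46 and 13.4 FPKM at 2 ng/ml, against 11.6 and 13.1 FPKM at 0 ng/ml, and Smad1, which carries BMP signals, had 11 and 10.4 FPKM at 2 ng/ml, against 9.09 and 6.86 FPKM at 0 ng/ml.

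Inhibitors induced by the pathway rose in 8 of 13 cases. Of 13 tested members, 8 rose, 1 fell and 4 missed the threshold, with a median log2 difference of 1.35. The count of falls was 0 without WT at 0 ng/ml replicate 2. Ldlrad4, which keeps SMAD2 and SMAD3 from the receptor, had 117 and 122 FPKM at 2 ng/ml, against 2.35 and 3.08 FPKM at 0 ng/ml (log2 difference 5.03 ± 0.24, adjusted p = 1.12e-07). Smad7, the inhibitory SMAD that blocks and degrades the receptor, had 17.6 and 14.8 FPKM at 2 ng/ml, against 2.89 and 2.23 FPKM at 0 ng/ml (log2 difference 2.27 ± 0.28, adjusted p = 0.000178). Spsb1, an adaptor that directs the type II receptor to degradation, had 23 and 44.4 FPKM at 2 ng/ml, against 1.92 and 0.964 FPKM at 0 ng/ml (log2 difference 3.79 ± 0.34, adjusted p = 1.69e-05). For these 3 genes the lower library at 2 ng/ml lay far above the higher one at 0 ng/ml. Tgif1, a corepressor of SMAD2, had 60.7 and 56.6 FPKM at 2 ng/ml, against 18.8 and 21.4 FPKM at 0 ng/ml (log2 difference 1.5 ± 0.18, adjusted p = 0.000170), and Pmepa1, which sequesters SMADs, had 70.8 and 43.5 FPKM at 2 ng/ml, against 16.1 and 14.1 FPKM at 0 ng/ml (log2 difference 1.81 ± 0.24, adjusted p = 0.000302). Strap, a receptor-associated protein that stabilises the binding of Smad7, was the member that fell, with 81.6 and 75.1 FPKM at 2 ng/ml, against 121 and 145 FPKM at 0 ng/ml. Strap did not pass without WT at 0 ng/ml replicate 2 (adjusted p = 0.0819) or without WT at 2 ng/ml replicate 2 (adjusted p = 0.0580).

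Genes listed as induced by TGF-b were called in both directions, although a rise is what the list stands for. Of 21 tested members, 9 rose, 8 fell and 4 missed the threshold, with a median log2 difference of -0.20. Called falls numbered 5 without WT at 2 ng/ml replicate 2. Itgae encodes the integrin alpha chain CD103, part of the receptor that binds T cells to E-cadherin of epithelia. It had 39.8 and 66.9 FPKM at 2 ng/ml, against 0.0709 and 0.136 FPKM at 0 ng/ml (log2 difference 5.58 ± 0.36, adjusted p = 1.22e-06). It was close to 0 in both libraries without TGF-b. Sox4, a transcription factor induced by TGF-b in many cells, had 66.4 and 71.9 FPKM at 2 ng/ml, against 1.58 and 2.03 FPKM at 0 ng/ml (log2 difference 4.65 ± 0.30, adjusted p = 1.22e-06), and Ctsw, the protease cathepsin W of cytotoxic cells, had 348 and 407 FPKM at 2 ng/ml, against 18.5 and 17.9 FPKM at 0 ng/ml (log2 difference 4.3 ± 0.19, adjusted p = 7.53e-08). Ccr8, a chemokine receptor of skin-homing and regulatory T cells, had 465 and 404 FPKM at 2 ng/ml, against 67.5 and 87.1 FPKM at 0 ng/ml (log2 difference 2.48 ± 0.19, adjusted p = 3.98e-06). These 4 genes had no library of one dose within the range of the other. Lgals3 (galectin-3) and Nrp1 (neuropilin-1) rose by 2.63 and 1.48 on the log2 scale. Members that fell include Tgm2, transglutaminase 2, with 0 and 0.906 FPKM at 2 ng/ml, against 28.8 and 12.5 FPKM at 0 ng/ml. Since 1 library at 2 ng/ml is listed at 0, its size is uncertain. Junb, an AP-1 subunit that TGF-b induces early in other cells, had 144 and 96.9 FPKM at 2 ng/ml, against 330.3 and 318 FPKM at 0 ng/ml (log2 difference -1.45 ± 0.20, adjusted p = 0.000422), and Gpr83, a receptor gene of regulatory T cells, had 9.28 and 8.98 FPKM at 2 ng/ml, against 33.3 and 40.2 FPKM at 0 ng/ml (log2 difference -1.89 ± 0.26, adjusted p = 0.000409). Runx1 rose (log2 difference 1.35 ± 0.25, adjusted p = 0.00304) while Runx3, the Runx gene of the cytotoxic lineage, fell (log2 difference -1.73 ± 0.28, adjusted p = 0.00108).

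**Figure D2:**
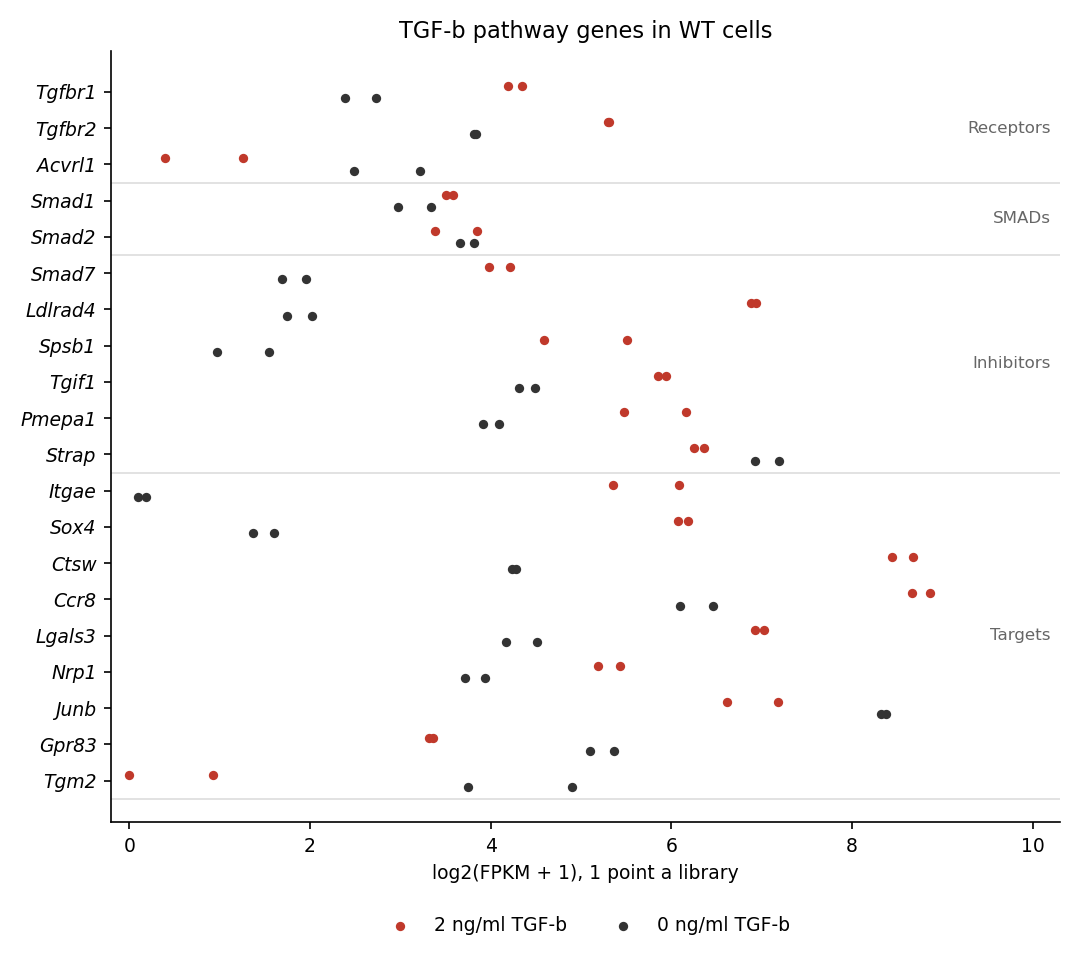
Levels of 20 pathway genes, as log2(FPKM + 1) on the x axis, with 1 point a library, red for 2 ng/ml and black for 0 ng/ml TGF-b, grouped by role. The points of the 2 doses overlap for Smad2, while both red points of Itgae lie above 5 and both black points under 1.

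Across all genes, the 15 largest rises held the pathway genes above with others of diverse function. Xcl1, the chemokine lymphotactin, had 416 and 134 FPKM at 2 ng/ml, against 13.2 and 12.7 FPKM at 0 ng/ml (log2 difference 4.09 ± 0.64, adjusted p = 0.000952); its 2 libraries at 2 ng/ml were far apart and both lay above 0 ng/ml. Spp1, the secreted phosphoprotein osteopontin, had 78.2 and 63.5 FPKM at 2 ng/ml, against 6.5 and 2.17 FPKM at 0 ng/ml (log2 difference 3.87 ± 0.42, adjusted p = 6.56e-05). Nupr1, a small stress-response chromatin protein, had 152 and 190.2 FPKM at 2 ng/ml, against 7.54 and 16.4 FPKM at 0 ng/ml (log2 difference 3.81 ± 0.34, adjusted p = 1.71e-05). Pik3ip1, an inhibitor of PI3 kinase, had 140.0 and 119 FPKM at 2 ng/ml, against 10.4 and 7.94 FPKM at 0 ng/ml (log2 difference 3.69 ± 0.26, adjusted p = 1.60e-06). Pdlim5, a scaffold of the actin cytoskeleton, had 104 and 136 FPKM at 2 ng/ml, against 7.03 and 9.83 FPKM at 0 ng/ml (log2 difference 3.69 ± 0.26, adjusted p = 1.92e-06), and Fbxo2, a subunit of a ubiquitin ligase for glycoproteins, had 15.9 and 14.4 FPKM at 2 ng/ml, against 0.324 and 0.506 FPKM at 0 ng/ml (log2 difference 3.52 ± 0.31, adjusted p = 1.53e-05). All 3 had separate doses. Apol9a and Apol9b, at 3.72 and 3.63, are near-identical copies whose reads may have been split, so each is uncertain.

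Among the 15 largest falls were effector genes. Gzmb (chromosome 14, 56877694 to 56881097 in mm9), the protease granzyme B with which cytotoxic cells kill, had 2.14 and 0 FPKM at 2 ng/ml, against 336 and 231 FPKM at 0 ng/ml (log2 difference -7.3 ± 0.55, adjusted p = 3.48e-06). Ifitm3, a membrane protein that blocks viral entry, had 0.761 and 1.53 FPKM at 2 ng/ml, against 113 and 63.7 FPKM at 0 ng/ml (log2 difference -5.35 ± 0.35, adjusted p = 1.23e-06). Tbx21, which encodes T-bet, the master factor of Th1 cells, had 0 and 0 FPKM at 2 ng/ml, against 20.7 and 6.22 FPKM at 0 ng/ml (adjusted p = 0.000180). An exact 0 in tables of this kind can be a failed estimate. No fold is therefore given for Tbx21, and that of Gzmb is uncertain. Tg, the thyroglobulin gene, had 4.95 and 1.39 FPKM at 2 ng/ml, against 39.9 and 33.3 FPKM at 0 ng/ml (log2 difference -3.31 ± 0.38, adjusted p = 9.49e-05), and Sema4a, a semaphorin that costimulates Th1 responses, had 0.194 and 1.96 FPKM at 2 ng/ml, against 16.9 and 13.5 FPKM at 0 ng/ml (log2 difference -3.1 ± 0.39, adjusted p = 0.000214). Fam71b had 0.427 and 0.331 FPKM at 2 ng/ml, against 13.5 and 9.46 FPKM at 0 ng/ml (log2 difference -3.16 ± 0.31, adjusted p = 2.87e-05).

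Genes of regulatory T cells split into 9 that rose and 4 that fell. Of 22 tested members, 9 rose, 4 fell and 9 missed the threshold, with a median log2 difference of 0.25. The number that rose was 5 without WT at 2 ng/ml replicate 2. Foxp3 (chromosome X, 7134466 to 7182546 in mm9), the factor that defines the lineage, had 120.3 and 168 FPKM at 2 ng/ml, against 51.4 and 50.5 FPKM at 0 ng/ml (log2 difference 1.46 ± 0.28, adjusted p = 0.00376), so that it was also present without TGF-b. Foxp3 did not pass without WT at 2 ng/ml replicate 2 (adjusted p = 0.0572). Ikzf4, which encodes the Foxp3 partner Eos, had 31.8 and 29.4 FPKM at 2 ng/ml, against 8.59 and 6.29 FPKM at 0 ng/ml (log2 difference 1.92 ± 0.22, adjusted p = 0.000100). Nt5e, the ectoenzyme CD73 that makes adenosine from AMP, had 269.8 and 357 FPKM at 2 ng/ml, against 38.7 and 43.6 FPKM at 0 ng/ml (log2 difference 2.89 ± 0.34, adjusted p = 0.000116). Both had separate doses. Il2ra, the alpha chain of the IL-2 receptor, had 208 and 287 FPKM at 2 ng/ml, against 359.9 and 320.3 FPKM at 0 ng/ml (log2 difference -0.47 ± 0.17, adjusted p = 0.0815), with both libraries at 2 ng/ml lower, without passing. The receptors Tnfrsf18 (GITR) and Tnfrsf9 (4-1BB) fell, at 281 and 275 FPKM at 2 ng/ml, against 767 and 844 FPKM at 0 ng/ml for Tnfrsf18 (log2 difference -1.53 ± 0.17, adjusted p = 6.79e-05) and 107 and 67.5 FPKM at 2 ng/ml, against 215 and 190.1 FPKM at 0 ng/ml for Tnfrsf9 (log2 difference -1.24 ± 0.21, adjusted p = 0.00137). Folr4, the folate receptor 4 that marks regulatory T cells, fell as well (log2 difference -1.55 ± 0.18, adjusted p = 9.29e-05). Entpd1, the ectoenzyme CD39 that supplies AMP, had 6.63 and 3.82 FPKM at 2 ng/ml, against 2.81 and 2.7 FPKM at 0 ng/ml (log2 difference 0.69 ± 0.39, adjusted p = 0.258).

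Genes of the Th1 programme fell more often than they rose. Of 18 tested members, 3 rose, 9 fell and 6 missed the threshold, with a median log2 difference of -1.19. Besides Tbx21, Il12rb1, a chain of the IL-12 receptor, had 6.79 and 8.27 FPKM at 2 ng/ml, against 46 and 28 FPKM at 0 ng/ml (log2 difference -2.12 ± 0.32, adjusted p = 0.000794). Ccl5, the chemokine RANTES, had 2.02 and 1.44 FPKM at 2 ng/ml, against 25.5 and 18 FPKM at 0 ng/ml (log2 difference -3.05 ± 0.37, adjusted p = 0.000178), and Ccl3, another inflammatory chemokine, had 10.6 and 9.7 FPKM at 2 ng/ml, against 59.4 and 42 FPKM at 0 ng/ml (log2 difference -2.19 ± 0.41, adjusted p = 0.00293). The 2 doses were apart for the 3 genes. Ifng, the defining cytokine, was low, with 0.0695 and 0 FPKM at 2 ng/ml, against 2.47 and 0.969 FPKM at 0 ng/ml (log2 difference -1.34 ± 0.77, adjusted p = 0.269), and did not pass. The 3 members that rose were receptors. Cxcr6, which binds CXCL16 and marks tissue-resident T cells, had 68.2 and 60.0 FPKM at 2 ng/ml, against 3.8 and 8.16 FPKM at 0 ng/ml (log2 difference 3.29 ± 0.43, adjusted p = 0.000253). Il18r1, a chain of the IL-18 receptor, had 21.2 and 30.2 FPKM at 2 ng/ml, against 6.87 and 5.69 FPKM at 0 ng/ml (log2 difference 1.86 ± 0.33, adjusted p = 0.00236), and Cxcr3, which binds interferon-induced chemokines, had 11.7 and 14 FPKM at 2 ng/ml, against 3.41 and 0.77 FPKM at 0 ng/ml (log2 difference 2.3 ± 0.47, adjusted p = 0.00533). Cxcr3 did not pass without WT at 0 ng/ml replicate 2 (adjusted p = 0.0693) or without WT at 2 ng/ml replicate 2 (adjusted p = 0.0527).

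Cytotoxic genes fell in part. Of 20 tested members, 2 rose, 6 fell and 12 missed the threshold, with a median log2 difference of -0.26. Ctsw was one of the 2 that rose, and Serpinb6a, an inhibitor of granzyme-like proteases, was the other, with 71.5 and 77.9 FPKM at 2 ng/ml, against 28.2 and 38.5 FPKM at 0 ng/ml (log2 difference 1.16 ± 0.21, adjusted p = 0.00236). Its relatives went the other way. Serpinb9, the granzyme B inhibitor, had 6.12 and 5.01 FPKM at 2 ng/ml, against 17.7 and 17.2 FPKM at 0 ng/ml (log2 difference -1.5 ± 0.24, adjusted p = 0.00118), and Serpinb6b had 6.8 and 7.75 FPKM at 2 ng/ml, against 31.1 and 31.1 FPKM at 0 ng/ml (log2 difference -1.96 ± 0.27, adjusted p = 0.000387). Gzmc, granzyme C, had 0 and 0 FPKM at 2 ng/ml, against 3.6 and 6.99 FPKM at 0 ng/ml. Gzmc did not pass without WT at 0 ng/ml replicate 2 (adjusted p = 0.0708). Gzma, granzyme A, was listed at 0 in all 4 libraries.

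Genes induced by interferon fell in part, and none rose. Of 24 tested members, 0 rose, 10 fell and 14 missed the threshold, with a median log2 difference of -1.07. Ifitm2, an antiviral membrane protein, had 63.2 and 64.9 FPKM at 2 ng/ml, against 257 and 297 FPKM at 0 ng/ml (log2 difference -2.09 ± 0.21, adjusted p = 3.25e-05). Gbp2, a guanylate-binding GTPase induced by interferon-gamma, had 96.6 and 83.8 FPKM at 2 ng/ml, against 778 and 489.7 FPKM at 0 ng/ml (log2 difference -2.76 ± 0.38, adjusted p = 0.000424), and Igtp, a GTPase of the same defence, had 124 and 111 FPKM at 2 ng/ml, against 457 and 330.1 FPKM at 0 ng/ml (log2 difference -1.72 ± 0.21, adjusted p = 0.000188). Iigp1, an immunity-related GTPase, had 10.4 and 2.58 FPKM at 2 ng/ml, against 69.8 and 43.7 FPKM at 0 ng/ml (log2 difference -3.14 ± 0.41, adjusted p = 0.000269). Each had both libraries at 2 ng/ml below both at 0 ng/ml. Ifitm, Gbp and immunity-related GTPase genes have close copies whose reads may be shared, and 6 listed genes that stand in joint entries were not counted. The promoters of Ifitm3 and Gbp2 are printed above.

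Genes of the MHC class I pathway fell as well. Of 8 tested members, 0 rose, 7 fell and 1 missed the threshold, with a median log2 difference of -1.19. Those that fell numbered 3 without WT at 0 ng/ml replicate 1. Tap1, which pumps peptides into the endoplasmic reticulum, had 41.3 and 39 FPKM at 2 ng/ml, against 227 and 118 FPKM at 0 ng/ml (log2 difference -2.0 ± 0.30, adjusted p = 0.000718). Psmb9, a subunit of the immunoproteasome, had 99.9 and 79.2 FPKM at 2 ng/ml, against 304 and 257 FPKM at 0 ng/ml (log2 difference -1.64 ± 0.22, adjusted p = 0.000310), and Psmb8, another such subunit, had 369 and 396 FPKM at 2 ng/ml, against 957 and 941 FPKM at 0 ng/ml (log2 difference -1.31 ± 0.18, adjusted p = 0.000422). Tap1 and Psmb9 are neighbours read in opposite directions, and their promoter windows (Tap1 at chr17:34187306-34187605 (+), Psmb9 at chr17:34187281-34187580 (-), GRCm38.p6) share 275 bases. The Psmb9 window held 0 matches of the interferon repeat. H2-K1, a class I heavy chain, had 499 and 357 FPKM at 2 ng/ml, against 983 and 709.8 FPKM at 0 ng/ml (log2 difference -0.98 ± 0.20, adjusted p = 0.00589). H2-K1 did not pass without WT at 0 ng/ml replicate 1 (adjusted p = 0.0863) or without WT at 2 ng/ml replicate 2 (adjusted p = 0.0886). B2m, the light chain, had 1677 and 1134 FPKM at 2 ng/ml, against 1731 and 1603 FPKM at 0 ng/ml and did not pass.

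Th17 and Th2 genes were called in both directions, beside 7.79% higher and 7.91% lower over all genes. Of 12 tested Th17 genes, 4 rose, 1 fell and 7 missed the threshold, with a median log2 difference of 0.48. Members that rose numbered 2 without WT at 0 ng/ml replicate 1, and falls numbered 0 without WT at 0 ng/ml replicate 1 and 2 without tKO at 0 ng/ml replicate 1. Ccr6, the chemokine receptor of Th17 cells, had 174 and 182 FPKM at 2 ng/ml, against 26.6 and 35.5 FPKM at 0 ng/ml (log2 difference 2.49 ± 0.35, adjusted p = 0.000441). Rora, a nuclear receptor of the lineage, had 14.8 and 12.1 FPKM at 2 ng/ml, against 4.09 and 4.77 FPKM at 0 ng/ml (log2 difference 1.41 ± 0.28, adjusted p = 0.00417). Il17f, a Th17 cytokine, had 126 and 99.7 FPKM at 2 ng/ml, against 10.8 and 30.7 FPKM at 0 ng/ml (log2 difference 2.55 ± 0.63, adjusted p = 0.0154). Il17f did not pass with no filter on low values, without WT at 0 ng/ml replicate 1, without WT at 2 ng/ml replicate 1 or without WT at 2 ng/ml replicate 2 (adjusted p between 0.0724 and 0.157). Among 11 tested Th2 genes, 1 rose and 2 fell. The count of falls was 0 without WT at 0 ng/ml replicate 1. Maf, which drives IL-4 in Th2 cells and IL-10 in several subsets, had 85.3 and 57.8 FPKM at 2 ng/ml, against 3.32 and 5.68 FPKM at 0 ng/ml (log2 difference 3.73 ± 0.33, adjusted p = 1.43e-05). Gata3, the Th2 master factor, had 28.8 and 31.9 FPKM at 2 ng/ml, against 29 and 22.9 FPKM at 0 ng/ml (log2 difference 0.23 ± 0.18, adjusted p = 0.444), and Il4 was at or near 0 in all 4 libraries. None of 6 tested Th9 and GM-CSF genes passed limma's test. Il9 had 1.19 and 2.67 FPKM at 2 ng/ml, against 0.0801 and 0 FPKM at 0 ng/ml (adjusted p = 0.0997).

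Follicular helper genes were divided. Of 12 tested members, 4 rose, 4 fell and 4 missed the threshold, with a median log2 difference of 0.11. The test called 2 rises and 2 falls without WT at 0 ng/ml replicate 1. Cxcr5, the receptor that leads T cells into B cell follicles, had 19.6 and 27.6 FPKM at 2 ng/ml, against 2.6 and 1.38 FPKM at 0 ng/ml (log2 difference 3.05 ± 0.34, adjusted p = 9.29e-05). Pdcd1, the inhibitory receptor PD-1, had 322 and 302 FPKM at 2 ng/ml, against 117 and 130.5 FPKM at 0 ng/ml (log2 difference 1.33 ± 0.25, adjusted p = 0.00343). Btla, an inhibitory receptor for HVEM, had 12.6 and 11.2 FPKM at 2 ng/ml, against 39.5 and 36 FPKM at 0 ng/ml (log2 difference -1.59 ± 0.19, adjusted p = 0.000115), and Cd200, an inhibitory ligand, had 93.9 and 55.4 FPKM at 2 ng/ml, against 216 and 187 FPKM at 0 ng/ml (log2 difference -1.46 ± 0.24, adjusted p = 0.00118). Cxcr5 and Pdcd1 were higher and Btla and Cd200 lower in the same libraries. Of 15 checkpoint genes tested 3 rose and 2 fell, beside 7.79% higher and 7.91% lower over all genes. The number that rose was 5 without tKO at 0.2 ng/ml replicate 1. Cd96, a receptor for nectin-family ligands, rose with 109 and 94.9 FPKM at 2 ng/ml, against 39.5 and 36.1 FPKM at 0 ng/ml (log2 difference 1.41 ± 0.18, adjusted p = 0.000210). 

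Receptors for migration rose more often than they fell. Of 19 tested members, 9 rose, 2 fell and 8 missed the threshold, with a median log2 difference of 0.45. Those that fell numbered 1 without WT at 0 ng/ml replicate 1. Beside Ccr8, Ccr6, Cxcr3, Cxcr5 and Cxcr6, the fractalkine receptor gene Cx3cr1 rose, with 5.32 and 2.98 FPKM at 2 ng/ml, against 0.00795 and 0.0395 FPKM at 0 ng/ml (log2 difference 2.29 ± 0.34, adjusted p = 0.000712). With a pseudocount of 0.1 the difference of Cx3cr1 was 5.06. Gpr183, a receptor for oxysterols that guides cells to follicle borders, fell, with 9.39 and 5.18 FPKM at 2 ng/ml, against 23.2 and 25.2 FPKM at 0 ng/ml (log2 difference -1.65 ± 0.24, adjusted p = 0.000550). Among chemokines, 2 of 10 tested rose and 4 fell, beside 7.79% higher and 7.91% lower over all genes. Members that rose numbered 1 without WT at 0 ng/ml replicate 1. Ccl22, which attracts CCR4-bearing cells, had 2.34 and 3.9 FPKM at 2 ng/ml, against 27.9 and 14 FPKM at 0 ng/ml (log2 difference -2.37 ± 0.39, adjusted p = 0.00137). Ccl1, the ligand of CCR8, had 27.9 and 25.5 FPKM at 2 ng/ml, against 3.15 and 8.71 FPKM at 0 ng/ml (log2 difference 2.13 ± 0.41, adjusted p = 0.00350). Ccl1 did not pass without WT at 0 ng/ml replicate 1 (adjusted p = 0.0508). Of 17 integrin and adhesion genes tested, Itgae rose and Icam2 fell, beside 7.79% higher and 7.91% lower over all genes. Icam2 had 39 and 29.6 FPKM at 2 ng/ml, against 56.5 and 51.5 FPKM at 0 ng/ml. Icam2 did not pass with no filter on low values, in a fit of only the libraries of the comparison, without the mean-variance trend, without WT at 0 ng/ml replicate 1, without WT at 0.2 ng/ml replicate 1, without tKO at 2 ng/ml replicate 1, without WT at 0 ng/ml replicate 2, without WT at 0.2 ng/ml replicate 2, without WT at 2 ng/ml replicate 2 or without tKO at 2 ng/ml replicate 2 (adjusted p between 0.0534 and 0.276). The count of rises was 2 without tKO at 0.2 ng/ml replicate 1, and falls numbered 0 without WT at 0 ng/ml replicate 1 and 2 without tKO at 0.2 ng/ml replicate 1. Itga1, the chain that binds collagen, was listed at 0 in all 4 libraries.

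Lineage factors outside the helper lists included Ikzf3, which encodes Aiolos and rose with 15.5 and 14.9 FPKM at 2 ng/ml, against 4.05 and 3.86 FPKM at 0 ng/ml (log2 difference 1.71 ± 0.33, adjusted p = 0.00378). Of 21 tested factors, 6 rose and 3 fell, beside 7.79% higher and 7.91% lower over all genes. Called falls numbered 1 without WT at 0 ng/ml replicate 1. Batf3, an AP-1-like factor of Th1 cells and dendritic cells, had 0 and 0 FPKM at 2 ng/ml, against 1.35 and 1.42 FPKM at 0 ng/ml (adjusted p = 0.0324), and no fold is given. Batf3 did not pass with no filter on low values, without WT at 0 ng/ml replicate 1, without WT at 2 ng/ml replicate 1, without tKO at 2 ng/ml replicate 1, without WT at 0 ng/ml replicate 2, without WT at 2 ng/ml replicate 2 or without tKO at 2 ng/ml replicate 2 (adjusted p between 0.0503 and 0.140).

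Genes of naive and recirculating T cells rose more often than they fell. Of 20 tested members, 10 rose, 1 fell and 9 missed the threshold, with a median log2 difference of 0.70. The number that rose was 4 without WT at 0 ng/ml replicate 2, and falls numbered 0 without WT at 0 ng/ml replicate 1. Tcf7, which encodes TCF-1, the factor of naive and memory T cells, had 181 and 176 FPKM at 2 ng/ml, against 92 and 74.6 FPKM at 0 ng/ml (log2 difference 1.1 ± 0.18, adjusted p = 0.00145). Foxo1, which sustains the naive state, had 65.1 and 73.4 FPKM at 2 ng/ml, against 31.3 and 31.1 FPKM at 0 ng/ml (log2 difference 1.12 ± 0.17, adjusted p = 0.000690). Klf13 had 41.5 and 38.5 FPKM at 2 ng/ml, against 15.5 and 14.2 FPKM at 0 ng/ml (log2 difference 1.37 ± 0.20, adjusted p = 0.000496). The doses were apart for the 3 genes. Cd27, a costimulatory receptor, rose too (log2 difference 1.22 ± 0.24, adjusted p = 0.00454). Cd27 did not pass without WT at 2 ng/ml replicate 1 (adjusted p = 0.0515) or without WT at 0 ng/ml replicate 2 (adjusted p = 0.0515). In the T cell receptor complex, 1 of 17 tested genes rose and 4 fell, beside 7.79% higher and 7.91% lower over all genes. Those that rose numbered 0 without WT at 0 ng/ml replicate 1 and 3 without tKO at 0.2 ng/ml replicate 1, and falls numbered 2 without WT at 0 ng/ml replicate 1. Cd2, an adhesion receptor, had 412 and 389 FPKM at 2 ng/ml, against 845 and 794 FPKM at 0 ng/ml (log2 difference -1.03 ± 0.18, adjusted p = 0.00214). Cd3d, a chain of CD3, had 518 and 427 FPKM at 2 ng/ml, against 334 and 368 FPKM at 0 ng/ml (log2 difference 0.42 ± 0.17, adjusted p = 0.105).

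Costimulation and cytokine signalling genes fell more often than they rose. Of 21 tested TNF receptor family members and ligands, 5 rose, 8 fell and 8 missed the threshold, with a median log2 difference of -0.46. Members that rose numbered 2 without WT at 2 ng/ml replicate 1, and falls numbered 4 without WT at 0 ng/ml replicate 2. Tnfrsf1b, the TNF receptor 2 of regulatory T cells, had 69.9 and 77.9 FPKM at 2 ng/ml, against 27.7 and 23.6 FPKM at 0 ng/ml (log2 difference 1.49 ± 0.21, adjusted p = 0.000458), and Tnfrsf26 had 38.6 and 47 FPKM at 2 ng/ml, against 12 and 13.3 FPKM at 0 ng/ml (log2 difference 1.68 ± 0.24, adjusted p = 0.000522). Fas, the death receptor, had 39.9 and 42.8 FPKM at 2 ng/ml, against 73 and 82.1 FPKM at 0 ng/ml (log2 difference -0.89 ± 0.16, adjusted p = 0.00218), and Tnfsf4, OX40 ligand, had 9.21 and 4.45 FPKM at 2 ng/ml, against 22.3 and 20.3 FPKM at 0 ng/ml (log2 difference -1.58 ± 0.29, adjusted p = 0.00293). Of 11 genes of IL-2 and common gamma chain signalling, 0 rose and 4 fell, and 0 fell without WT at 0 ng/ml replicate 1. Il2 itself had 1.64 and 0 FPKM at 2 ng/ml, against 8.73 and 4.87 FPKM at 0 ng/ml (log2 difference -2.22 ± 0.55, adjusted p = 0.0163). Il2 did not pass with no filter on low values (adjusted p = 0.0896), without WT at 0 ng/ml replicate 1 (adjusted p = 0.137) or without WT at 2 ng/ml replicate 2 (adjusted p = 0.170). With a pseudocount of 0.1 the difference of Il2 was -3.99. Among 8 SOCS genes 3 fell, beside 7.91% lower over all genes. Socs1, an inhibitor of JAK kinases induced by interferon-gamma, had 57.6 and 40.4 FPKM at 2 ng/ml, against 143 and 140.1 FPKM at 0 ng/ml (log2 difference -1.53 ± 0.26, adjusted p = 0.00184). Cd38, an ectoenzyme that consumes NAD, rose with 15.8 and 12.3 FPKM at 2 ng/ml, against 2.05 and 3.18 FPKM at 0 ng/ml (log2 difference 2.07 ± 0.37, adjusted p = 0.00233).

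Genes of glycolysis, the pathway from glucose to lactate, fell. Of 22 tested members, 0 rose, 19 fell and 3 missed the threshold, with a median log2 difference of -1.32. The count of falls was 12 without WT at 0 ng/ml replicate 1. Over all genes 7.91% fell. Slc2a1, the glucose transporter GLUT1, had 28 and 15.3 FPKM at 2 ng/ml, against 77 and 58.4 FPKM at 0 ng/ml (log2 difference -1.65 ± 0.25, adjusted p = 0.000712). Tpi1, triosephosphate isomerase, had 192 and 172 FPKM at 2 ng/ml, against 629 and 626 FPKM at 0 ng/ml (log2 difference -1.78 ± 0.16, adjusted p = 1.73e-05), and Pgk1, phosphoglycerate kinase, had 418 and 394 FPKM at 2 ng/ml, against 1026 and 997 FPKM at 0 ng/ml (log2 difference -1.32 ± 0.15, adjusted p = 9.29e-05). Gapdh, the dehydrogenase between these 2 steps, had 1008 and 921 FPKM at 2 ng/ml, against 2429 and 2414 FPKM at 0 ng/ml (log2 difference -1.33 ± 0.17, adjusted p = 0.000284). Both libraries at 2 ng/ml lay below both at 0 ng/ml for each of them. Pkm, pyruvate kinase, had 641 and 632 FPKM at 2 ng/ml, against 2082 and 2007 FPKM at 0 ng/ml (log2 difference -1.68 ± 0.21, adjusted p = 0.000210), and Ldha, which turns pyruvate to lactate, had 1961 and 1790.5 FPKM at 2 ng/ml, against 4263 and 4369 FPKM at 0 ng/ml (log2 difference -1.2 ± 0.17, adjusted p = 0.000595). Ldha was the most abundant called gene. The promoters of Ldha, Pgk1 and Slc2a1 stand above with their ACGTG matches.

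**Figure D3:**
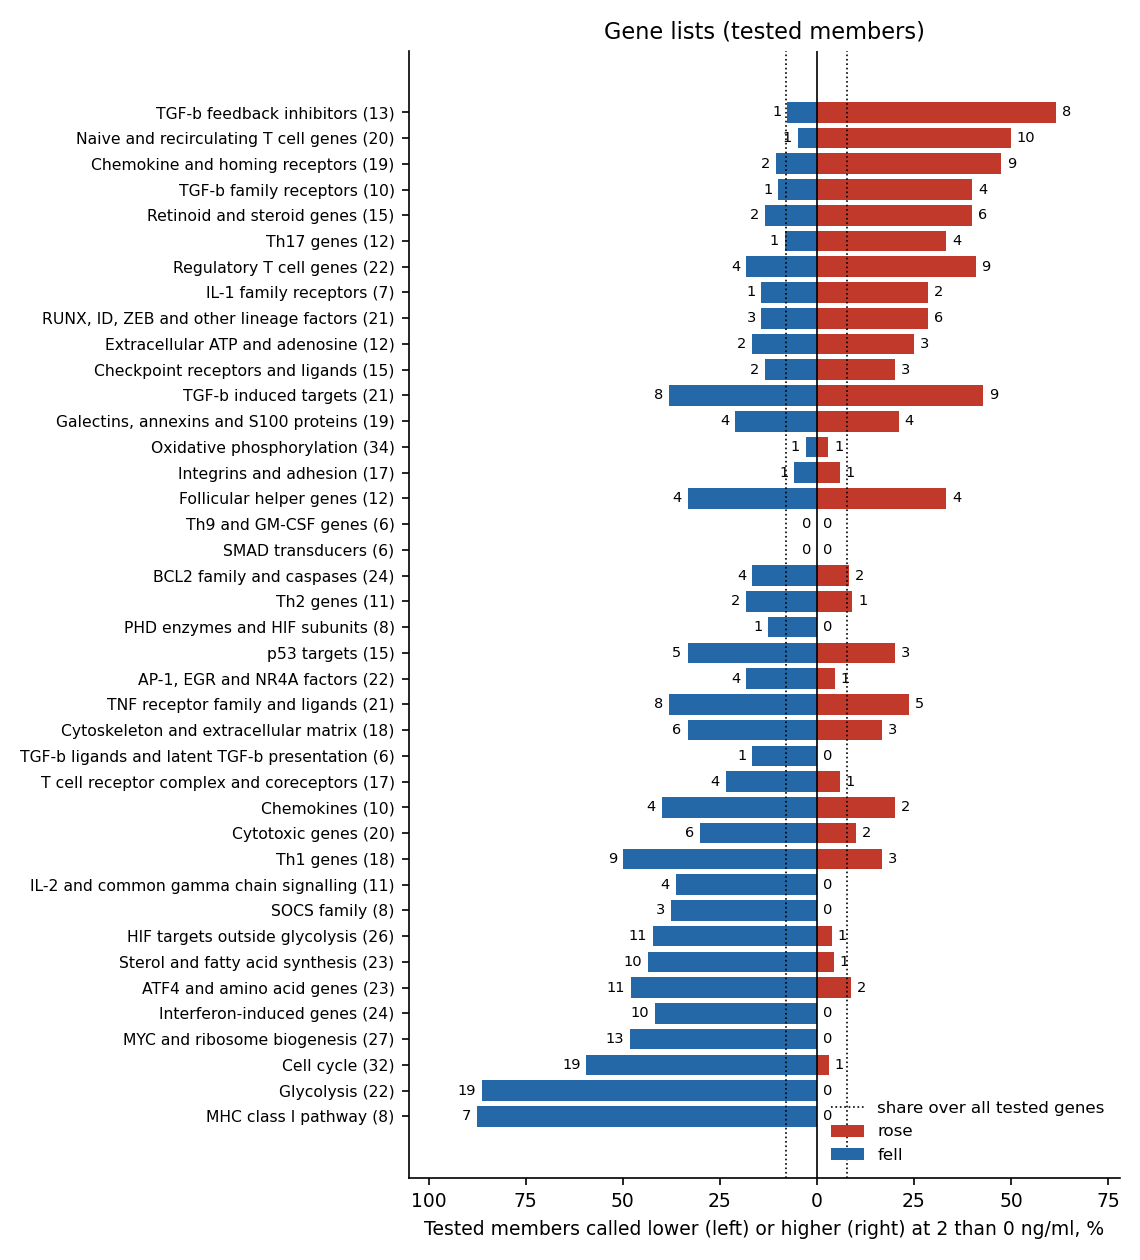
Share of the tested members of each list called lower (blue, left) or higher (red, right) at 2 than at 0 ng/ml TGF-b in WT cells, with the counts beside the bars, the number tested in brackets and dotted lines at the share over all tested genes. The glycolysis list had 19 of 22 members lower and the feedback inhibitors 8 of 13 higher.

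HIF targets outside glycolysis fell in part. Of 26 tested members, 1 rose, 11 fell and 14 missed the threshold, with a median log2 difference of -0.47. Called rises numbered 2 without tKO at 0.2 ng/ml replicate 1, and falls numbered 5 without WT at 0 ng/ml replicate 1. Bnip3, a receptor for the removal of mitochondria, had 24 and 31.9 FPKM at 2 ng/ml, against 101 and 94.8 FPKM at 0 ng/ml (log2 difference -1.79 ± 0.17, adjusted p = 2.12e-05). Ero1l, an oxidase of protein folding, had 12.2 and 10.1 FPKM at 2 ng/ml, against 27 and 29 FPKM at 0 ng/ml (log2 difference -1.26 ± 0.19, adjusted p = 0.000629), and Ndrg1, a stress-response protein, had 14.5 and 11.2 FPKM at 2 ng/ml, against 44.4 and 45.2 FPKM at 0 ng/ml (log2 difference -1.73 ± 0.23, adjusted p = 0.000297). Mgarp, a mitochondrial protein, had 0 and 0.0287 FPKM at 2 ng/ml, against 12.4 and 6.96 FPKM at 0 ng/ml, and Stc2, the secreted stanniocalcin 2, had 0.332 and 0 FPKM at 2 ng/ml, against 10.6 and 10.1 FPKM at 0 ng/ml; each is listed at 0 in 1 library at 2 ng/ml, so the sizes are uncertain. Plod2, a collagen-modifying lysyl hydroxylase, was the member that rose, with 17.7 and 18.6 FPKM at 2 ng/ml, against 6.51 and 4.9 FPKM at 0 ng/ml (log2 difference 1.52 ± 0.25, adjusted p = 0.00142). Of the enzymes that mark HIF for degradation, Egln1 (PHD2) had 21.7 and 20.4 FPKM at 2 ng/ml, against 44.3 and 36.6 FPKM at 0 ng/ml (log2 difference -0.90 ± 0.18, adjusted p = 0.00502). Egln1 did not pass without WT at 0 ng/ml replicate 1 (adjusted p = 0.0690). Egln2 (PHD1) had 46.4 and 35.6 FPKM at 2 ng/ml, against 48.8 and 47.1 FPKM at 0 ng/ml and Egln3 (PHD3) 11 and 14.9 FPKM at 2 ng/ml, against 18.7 and 14 FPKM at 0 ng/ml, neither passing. At 0.2 ng/ml, however, Egln3 had 5.68 and 7.84 FPKM and was called lower than at 0 ng/ml (log2 difference -1.16 ± 0.23, adjusted p = 0.0193).

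Genes of biosynthesis fell in part. Of 27 tested MYC and ribosome biogenesis genes, 0 rose, 13 fell and 14 missed the threshold, with a median log2 difference of -0.68. The number that fell was 4 without WT at 0 ng/ml replicate 1. Nop56, a core protein of box C/D ribonucleoproteins, had 136 and 131 FPKM at 2 ng/ml, against 254 and 264 FPKM at 0 ng/ml (log2 difference -0.95 ± 0.14, adjusted p = 0.000701), while Myc had 84.6 and 88.7 FPKM at 2 ng/ml, against 161 and 106 FPKM at 0 ng/ml (log2 difference -0.59 ± 0.23, adjusted p = 0.107) and did not pass. Of 23 tested genes of amino acid supply and its regulator ATF4, 2 rose, 11 fell and 10 missed the threshold, with a median log2 difference of -0.63. Those that fell numbered 5 without WT at 0 ng/ml replicate 1. Psat1, an enzyme of serine synthesis, had 76 and 78.3 FPKM at 2 ng/ml, against 169 and 154 FPKM at 0 ng/ml (log2 difference -1.05 ± 0.15, adjusted p = 0.000539), and Shmt1, a cytosolic enzyme of one-carbon metabolism, had 43 and 47.6 FPKM at 2 ng/ml, against 98.3 and 94 FPKM at 0 ng/ml (log2 difference -1.07 ± 0.18, adjusted p = 0.00130). Ddit3, which encodes the stress factor CHOP, rose with 54.3 and 46.9 FPKM at 2 ng/ml, against 16 and 22.4 FPKM at 0 ng/ml (log2 difference 1.37 ± 0.23, adjusted p = 0.00171). Of 23 tested genes of sterol and fatty acid synthesis, 1 rose, 10 fell and 12 missed the threshold, with a median log2 difference of -0.59. There were 0 rises and 2 falls without WT at 0 ng/ml replicate 1. Fdps, an enzyme of the mevalonate pathway, had 171 and 175 FPKM at 2 ng/ml, against 350.5 and 324 FPKM at 0 ng/ml (log2 difference -0.96 ± 0.16, adjusted p = 0.00152), and Scd2, a fatty acid desaturase, had 23.6 and 19.1 FPKM at 2 ng/ml, against 86.5 and 49.5 FPKM at 0 ng/ml (log2 difference -1.58 ± 0.24, adjusted p = 0.000880). Of 34 genes of oxidative phosphorylation, 1 rose and 1 fell, with a median of -0.16, beside 7.79% higher and 7.91% lower over all genes. In all, 0 rose and 0 fell without WT at 0 ng/ml replicate 1.

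Cell cycle genes fell more often than they rose. Of 32 tested members, 1 rose, 19 fell and 12 missed the threshold, with a median log2 difference of -0.70. Called rises numbered 0 without WT at 2 ng/ml replicate 1, and falls numbered 7 without WT at 0 ng/ml replicate 1. Ccnd3, cyclin D3 of the G1 phase, had 150.1 and 149 FPKM at 2 ng/ml, against 328 and 319 FPKM at 0 ng/ml (log2 difference -1.11 ± 0.15, adjusted p = 0.000404). Plk1, a mitotic kinase, had 73.8 and 65.7 FPKM at 2 ng/ml, against 127 and 128 FPKM at 0 ng/ml (log2 difference -0.86 ± 0.15, adjusted p = 0.00184), and Aurkb, another, had 82.4 and 89.5 FPKM at 2 ng/ml, against 161 and 161 FPKM at 0 ng/ml (log2 difference -0.90 ± 0.17, adjusted p = 0.00347). Mki67, the proliferation marker, had 37.2 and 46.3 FPKM at 2 ng/ml, against 39.8 and 37.7 FPKM at 0 ng/ml (log2 difference 0.10 ± 0.19, adjusted p = 0.780), and the doses overlapped. Cdkn1b, which encodes the inhibitor p27, was the member that rose, with 16.3 and 12.6 FPKM at 2 ng/ml, against 6.18 and 4.96 FPKM at 0 ng/ml (log2 difference 1.23 ± 0.26, adjusted p = 0.00704). Cdkn1b did not pass without WT at 2 ng/ml replicate 1 (adjusted p = 0.0562) or without WT at 0 ng/ml replicate 2 (adjusted p = 0.0715). Cdkn1a, the inhibitor p21, fell with 40.0 and 25 FPKM at 2 ng/ml, against 71.6 and 74.8 FPKM at 0 ng/ml (log2 difference -1.18 ± 0.23, adjusted p = 0.00387). Cdkn1a did not pass without WT at 2 ng/ml replicate 2 (adjusted p = 0.0592). Among 15 p53 targets 3 rose and 5 fell, beside 7.79% higher and 7.91% lower over all genes. Sesn1, a stress-induced inhibitor of mTORC1, had 103 and 129 FPKM at 2 ng/ml, against 30.8 and 22.8 FPKM at 0 ng/ml (log2 difference 2.08 ± 0.23, adjusted p = 7.34e-05), and Trp53inp1, a proapoptotic cofactor of p53, had 42.1 and 52.7 FPKM at 2 ng/ml, against 12.8 and 14.3 FPKM at 0 ng/ml (log2 difference 1.73 ± 0.24, adjusted p = 0.000409).

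Of 24 survival and death genes, members of the BCL2 family and caspases, 2 rose and 4 fell, beside 7.79% higher and 7.91% lower over all genes. The counts were 1 and 2 without WT at 0 ng/ml replicate 1. Bcl2l1, which encodes the survival protein BCL-XL, had 36.2 and 32.1 FPKM at 2 ng/ml, against 79.4 and 88.6 FPKM at 0 ng/ml (log2 difference -1.27 ± 0.16, adjusted p = 0.000178). Of 22 AP-1, EGR and NR4A factors, 1 rose and 4 fell, Junb among those lower. Those that rose numbered 0 without WT at 2 ng/ml replicate 1, and falls numbered 1 without WT at 0 ng/ml replicate 1.

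Galectins, annexins and S100 proteins split evenly, 4 higher and 4 lower of 19 tested. S100a4, a calcium-binding protein of motile cells, had 19.2 and 16.4 FPKM at 2 ng/ml, against 2.2 and 1.81 FPKM at 0 ng/ml (log2 difference 2.65 ± 0.37, adjusted p = 0.000417), whereas S100a6 had 5.03 and 5.84 FPKM at 2 ng/ml, against 28.6 and 28.7 FPKM at 0 ng/ml (log2 difference -2.2 ± 0.25, adjusted p = 0.000100) and Anxa2, annexin A2, had 84.2 and 70.3 FPKM at 2 ng/ml, against 306 and 245 FPKM at 0 ng/ml (log2 difference -1.82 ± 0.17, adjusted p = 2.15e-05). Among cytoskeleton and matrix genes 3 of 18 rose and 6 fell, beside 7.79% higher and 7.91% lower over all genes. Timp2, an inhibitor of matrix metalloproteinases, had 133 and 118 FPKM at 2 ng/ml, against 13.8 and 16.1 FPKM at 0 ng/ml (log2 difference 2.99 ± 0.19, adjusted p = 1.22e-06), and Adam19, a membrane protease, had 18.2 and 15.1 FPKM at 2 ng/ml, against 3.83 and 2.68 FPKM at 0 ng/ml (log2 difference 2.06 ± 0.27, adjusted p = 0.000258). Acta2 and Tagln, smooth muscle genes that TGF-b induces in fibroblasts, were under 1 FPKM in all 4 libraries. Tagln2, the form in lymphocytes, fell with 366 and 306 FPKM at 2 ng/ml, against 729 and 777 FPKM at 0 ng/ml (log2 difference -1.17 ± 0.16, adjusted p = 0.000476).

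Of 15 retinoid and steroid genes, 6 rose and 2 fell. There were 3 rises and 1 falls without WT at 0 ng/ml replicate 1. Akr1c18, which inactivates progesterone, had 168 and 215 FPKM at 2 ng/ml, against 24.4 and 33.8 FPKM at 0 ng/ml (log2 difference 2.69 ± 0.24, adjusted p = 1.73e-05). Tsc22d3, the glucocorticoid-induced leucine zipper protein, had 96.6 and 75.3 FPKM at 2 ng/ml, against 15.7 and 9.92 FPKM at 0 ng/ml (log2 difference 2.67 ± 0.26, adjusted p = 2.87e-05), whereas Fkbp5, another glucocorticoid target, had 7.83 and 6.5 FPKM at 2 ng/ml, against 27 and 17 FPKM at 0 ng/ml (log2 difference -1.46 ± 0.27, adjusted p = 0.00295). Fkbp5 did not pass without WT at 0 ng/ml replicate 1 (adjusted p = 0.0535). Cyp11a1, the first enzyme of steroid synthesis, had 8.06 and 11.9 FPKM at 2 ng/ml, against 2.28 and 1.69 FPKM at 0 ng/ml (log2 difference 1.86 ± 0.33, adjusted p = 0.00239).

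Levels at the intermediate dose were set beside those at the others. At 0.2 ng/ml, 165 genes differed from 0 ng/ml (1.59% of those tested, 95 higher and 70 lower), and 45 differed between 2 and 0.2 ng/ml (0.435%, 28 higher and 17 lower). These contrasts share libraries with that of 2 and 0 ng/ml, so their values are only set side by side. Of 807 genes called higher at 2 ng/ml, 786 had a mean at 0.2 ng/ml between the means at 0 and 2 ng/ml, as had 788 of 819 called lower. These genes were called for a gap between 0 and 2 ng/ml in the same libraries, which favours a mean in between. The share over all genes was not computed, so the counts are no evidence of a graded response. Itgae had 0.0709 and 0.136 FPKM at 0 ng/ml, 2.33 and 4.09 FPKM at 0.2 ng/ml and 39.8 and 66.9 FPKM at 2 ng/ml. Foxp3, by contrast, had 51.4 and 50.5 FPKM at 0 ng/ml, 108 and 144 FPKM at 0.2 ng/ml and 120.3 and 168 FPKM at 2 ng/ml, so that its libraries at 0.2 and 2 ng/ml overlapped. Gzmb had 336 and 231 FPKM at 0 ng/ml, 37.8 and 32.3 FPKM at 0.2 ng/ml and 2.14 and 0 FPKM at 2 ng/ml. Tgm2, like Tbx21, was already low at 0.2 ng/ml, with 28.8 and 12.5 FPKM at 0 ng/ml, 0.445 and 0.0967 FPKM at 0.2 ng/ml and 0 and 0.906 FPKM at 2 ng/ml. The difference from 0 at the low dose was 1.9 ± 0.36 for Itgae and 1.27 ± 0.28 for Foxp3 (adjusted p = 0.0179 and 0.0397). Smad7 (0.86, adjusted p = 0.184) and Tgfbr1 (0.94, adjusted p = 0.246) did not pass at 0.2 ng/ml. The count at 0.2 ng/ml ran from 31 without WT at 0 ng/ml replicate 1 to 237 in fits with 1 library left out, and the count between 2 and 0.2 ng/ml from 8 without WT at 2 ng/ml replicate 2 to 113.

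**Figure D4:**
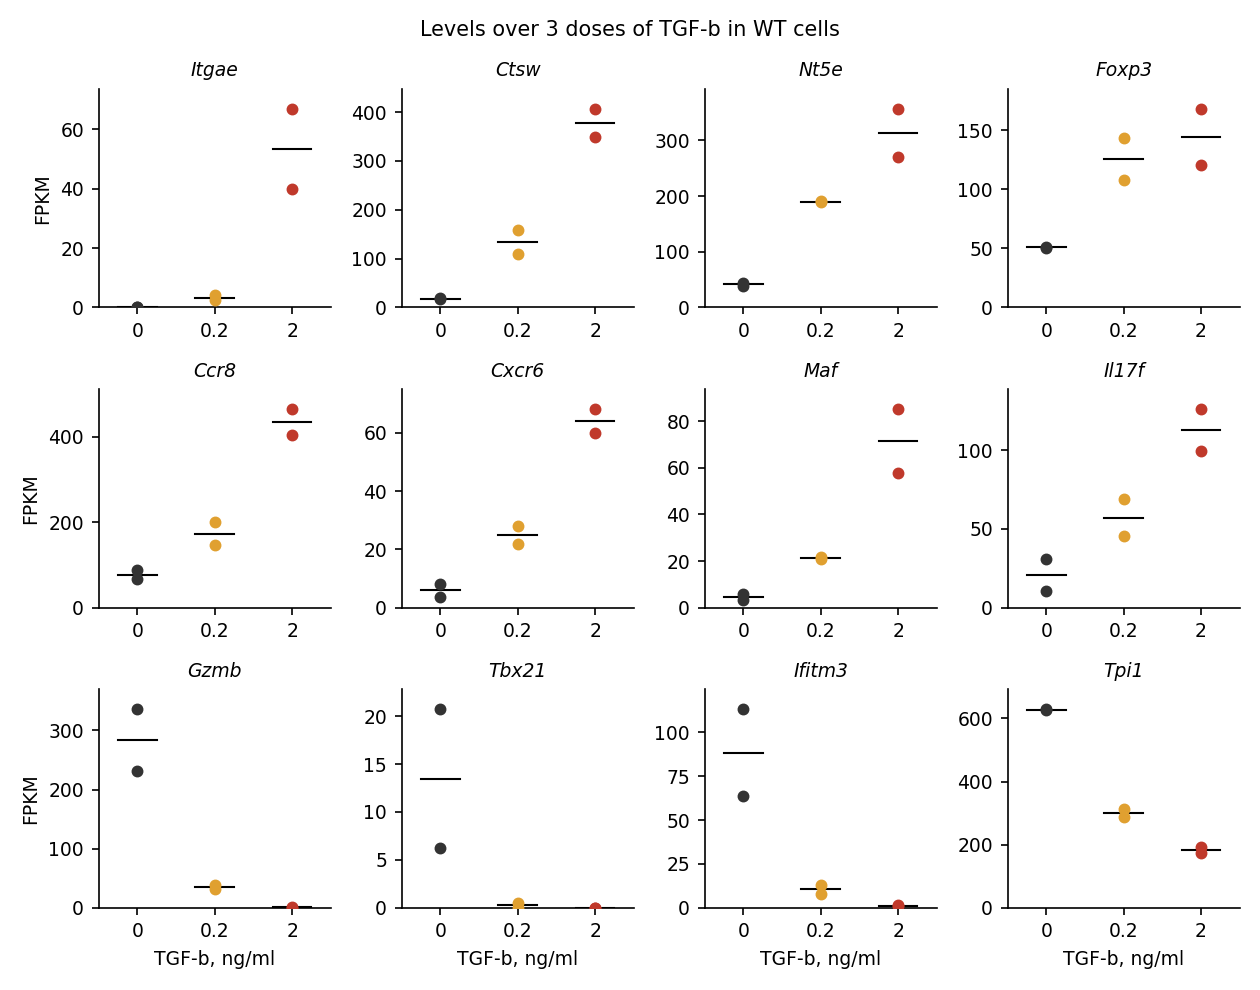
FPKM of 12 genes in WT cells at 0, 0.2 and 2 ng/ml TGF-b, with 1 point a library (n = 2 a dose) and a line at the mean. The libraries at 0.2 and 2 ng/ml overlapped for Foxp3, while Itgae had 2.33 and 4.09 FPKM at 0.2 ng/ml and 39.8 and 66.9 FPKM at 2 ng/ml.

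The response of tKO cells, which share no library with WT, was set against it. Egln1, a targeted gene, had 116 and 108 FPKM at 2 ng/ml, against 112 and 92.8 FPKM at 0 ng/ml in tKO cells, and 21.7 and 20.4 FPKM at 2 ng/ml, against 44.3 and 36.6 FPKM at 0 ng/ml in WT cells. The targeted Egln2 had 29.8 and 21.9 FPKM at 2 ng/ml, against 39 and 29.7 FPKM at 0 ng/ml in tKO cells, and Egln3 77.4 and 79.4 FPKM at 2 ng/ml, against 140.2 and 111 FPKM at 0 ng/ml. None of the 3 checks the genotype labels, since a level per gene does not show whether the floxed exons were read. Over 10354 genes the differences of 2 minus 0 ng/ml correlated at r = 0.466 between tKO and WT cells, across genes, which are not independent. Of the 1626 genes called in WT, 83.3% had the same sign in tKO, beside 63.9% of all genes. The response itself differed between tKO and WT for 308 genes (2.97%), 160 with a higher and 148 with a lower difference in tKO. That count ran from 78 without WT at 0 ng/ml replicate 1 to 719 without tKO at 0.2 ng/ml replicate 2, and it was 686 with a replicate block within each genotype and 630 without the 3 tKO replicate 1 libraries that carry Y chromosome transcripts. Of the 15 largest rises in WT, Spsb1 had a tKO response of -0.061, against 3.79 in WT, a difference of -3.85 (adjusted p = 0.00149). Itgae, at 5.26 in tKO and 5.58 in WT, did not differ beyond the test (difference -0.32 ± 0.51, adjusted p = 0.778). Of the glycolysis list, 6 of 22 genes had a higher response in tKO and 0 a lower one, beside 160 and 148 of all 10354 genes. Tpi1 had 1184 and 1233 FPKM at 2 ng/ml, against 1519 and 1777 FPKM at 0 ng/ml in tKO cells, and 192 and 172 FPKM at 2 ng/ml, against 629 and 626 FPKM at 0 ng/ml in WT cells. Among 24 interferon-induced genes, 6 had a higher and 1 a lower response in tKO, beside the same counts over all genes. These list counts were not recounted with a library left out.

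Foxp3 was among the 10 genes with the smallest p for that difference. In tKO it had 86.7 and 142 FPKM at 2 ng/ml, against 1.99 and 3.77 FPKM at 0 ng/ml, and in WT 120.3 and 168 FPKM at 2 ng/ml, against 51.4 and 50.5 FPKM at 0 ng/ml, a difference in response of 3.42 ± 0.40 (adjusted p = 0.00123). Both tKO libraries without TGF-b lay below both WT libraries without it. Akr1c18 had 505 and 383 FPKM at 2 ng/ml, against 623 and 454 FPKM at 0 ng/ml in tKO and 168 and 215 FPKM at 2 ng/ml, against 24.4 and 33.8 FPKM at 0 ng/ml in WT. Both tKO libraries without TGF-b lay above all 4 WT libraries.

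**Figure D5:**
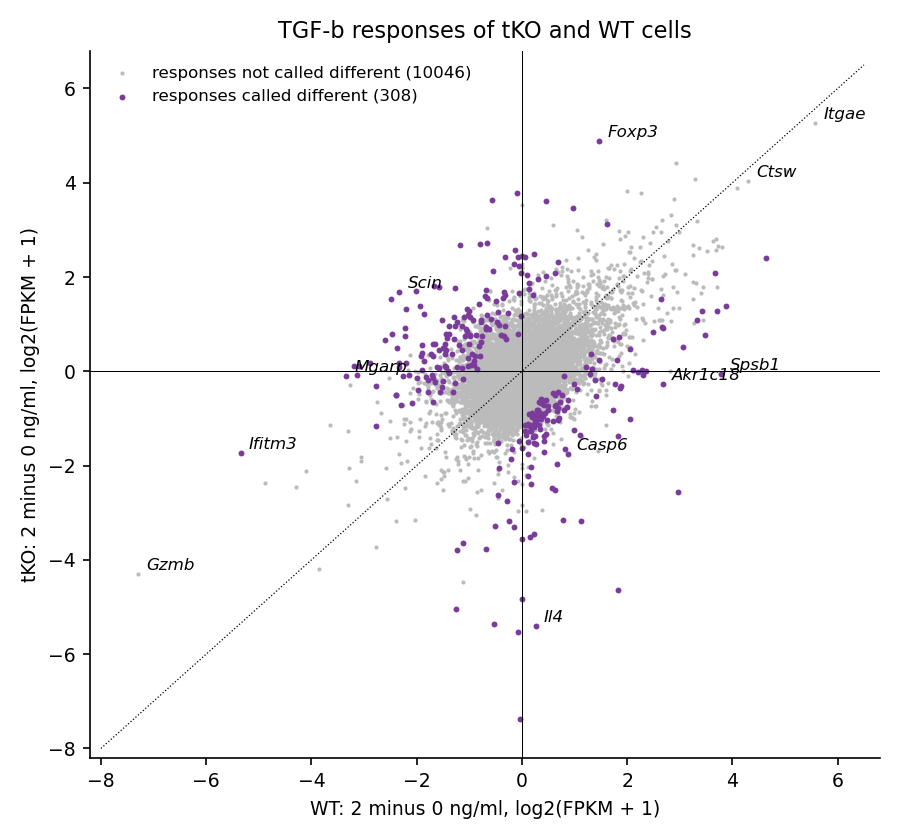
Differences in log2(FPKM + 1) between 2 and 0 ng/ml TGF-b in WT cells (x axis) and tKO cells (y axis) for 10354 genes, with the 308 whose responses were called different in purple and a dotted line where both are equal. Itgae and Ctsw lie near the line, Foxp3 above it and Spsb1 near 0 in tKO.

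The vehicle-treated wild-type cells of the second experiment, a separate table without cells lacking TGF-b, give levels at 2 ng/ml in 3 further libraries, with no test. Foxp3 had 91, 61.6 and 84 FPKM, Itgae 71.6, 102 and 90.6 FPKM and Ctsw 219, 318 and 279 FPKM. Gzmb had 0.913, 0.0803 and 0.044 FPKM and Tbx21 0.201, 0.145 and 0.0895 FPKM. Nt5e had 307, 443 and 402 FPKM and Ccr8 400.0, 534 and 437 FPKM. The tables were normalized separately, so the levels are not compared with those above.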

How the data were processed

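The authors deposited FPKM values per library, with a symbol and locus per entry; the build was mm9 and the tools Cuffdiff, Cufflinks, TopHat and Trimmomatic, per the submitters' processing notes, in versions not given in the sources used here. RNA was amplified with a SMARTer kit, which does not mark strand, per the labels' protocols. The table of 34309 entries was reduced by 8483 without a symbol and 18 exact duplicates, and the rest were summed per symbol to 22783. Comma-joined entries (345) are uncertain and were counted in no list. Genes averaging 1 FPKM or more in the first experiment were fitted with limma 3.58.1 (R 4.3.3) on log2(FPKM + 1), with 1 coefficient per genotype and dose and a mean-variance trend, two-sided; the fit was tested on simulated data. No count was available, so no counting interval is given. Members and lists were chosen with earlier results of these data known. Genes named are the 15 largest rises and falls, up to 5 called members per direction and the first 2 genes of each of 48 lists, the 10 smallest interaction p and the 10 most abundant called genes, of which some are not reported here. The largest rises and falls were taken among called genes whose doses lay apart, without joint entries. Older symbols were matched through RefSeq synonyms. No column of per-sample values was left without a sample. Alternatives changed the pseudocount, the filter, the scaling, the libraries fitted, the trend and the replicate block, and left out each library. Replicate numbers were judged to pair libraries where deviations of same-numbered libraries correlated above 0.1 at all 3 pairs of doses. Those of tKO did (0.11, 0.127 and 0.416), while those of WT did not. The 3 tKO replicate 1 libraries alone carry Y chromosome transcripts. The main fit used no pairing in either genotype, so differences between the tKO replicates enter the spread behind its p-values.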

Additional observations from a re-analysis of the deposited data

Results flagged for a closer look

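The response to 2 ng/ml TGF-b differed between tKO and WT cells, by limma's test of the interaction, for 308 genes. Of those with the smallest p, 9 are given as the tKO response minus the WT response. Il4 was at -5.66 ± 0.54 (adjusted p = 0.000489), with 0.254 and 0 FPKM at 2 ng/ml, against 37.9 and 56.4 FPKM at 0 ng/ml in tKO cells and at most 0.915 FPKM in WT cells. Il24 was at -5.46 ± 0.57 (adjusted p = 0.000596), with 1.93 and 1.18 FPKM at 2 ng/ml, against 104 and 129.5 FPKM at 0 ng/ml in tKO cells and at most 0.152 FPKM in WT cells. Pde1a, a phosphodiesterase, was at -4.84 ± 0.50 (adjusted p = 0.000561), with 1.21 and 0.833 FPKM at 2 ng/ml, against 71.6 and 93.3 FPKM at 0 ng/ml in tKO cells. Mgarp was at 3.25 ± 0.33 (adjusted p = 0.000561), with 197 and 179 FPKM at 2 ng/ml, against 196 and 205 FPKM at 0 ng/ml in tKO cells. In WT cells Mgarp was barely detected at 2 ng/ml, with the levels given above. Its WT difference was -3.35, and -6.37 with a pseudocount of 0.1, so the size of the difference in response is uncertain. Casp6 was at -2.63 ± 0.30 (adjusted p = 0.00112), with 24.9 and 29.3 FPKM at 2 ng/ml, against 93.2 and 93.3 FPKM at 0 ng/ml in tKO cells and 33.1 and 52.3 FPKM at 2 ng/ml, against 21.8 and 22.5 FPKM at 0 ng/ml in WT cells. Foxp3 was at 3.42 ± 0.40 (adjusted p = 0.00123), Akr1c18 at -2.96 ± 0.35 (adjusted p = 0.00123), Scin, an actin-severing protein, at 4.02 ± 0.48 (adjusted p = 0.00137) and Map6, a microtubule protein, at 3.52 ± 0.42 (adjusted p = 0.00137). All 9 calls held with each library left out in turn.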

How the results depend on the processing

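Of the 206 named genes that passed, 128 kept their call with each library left out in turn and 161 under every other setting; 12 values changed sign, all of genes that did not pass. With 1 library left out, genes higher ran from 371 to 1002, genes lower from 289 to 1089, genes with a different response in tKO from 78 to 719, those at 0.2 against 0 ng/ml from 31 to 237, and those at 2 against 0.2 ng/ml from 8 to 113. Without the 3 tKO replicate 1 libraries, an alternative chosen after seeing the data, the response differed for 630 genes and 15 differed between 2 and 0.2 ng/ml. Under the rule of a correlation above 0.1 at all 3 pairs of doses, replicate numbers were not taken to pair the WT libraries. Their correlations of deviations were positive (0.0573, 0.0899 and 0.186), so whether they are paired is unknown. The main fit used no pairing in either genotype. With a replicate block within each genotype the counts were 978 higher and 1100 lower, and 686 for tKO against WT. They were 283 for 0.2 against 0 ng/ml and 122 for 2 against 0.2 ng/ml. For tKO against WT the count was 157 with no filter, 511 with only the libraries of the comparison and 167 without the mean-variance trend. For 0.2 against 0 ng/ml it was 72, 81 and 105 under the same settings. For 2 against 0.2 ng/ml it was 83 with quantile normalization, 19 with only the 6 WT libraries and 0 with only those of the comparison, where limma's main fit had 1336 genes at an unadjusted p under 0.05. The causes were not tested. The sign changed under quantile normalization for Il24 (0.063). With 1 library left out it changed for B2m (-0.55 to 0.010), Cd8b1 (-0.87 to 0.23), Fos (-1.64 to 0.50), Il1r2 (-0.22 to 0.16), Il24 (-0.18 to 0.027), Il4 (-0.21 to 0.73), Mki67 (-0.055 to 0.25), Rarg (-0.013 to 1.27), Smad2 (-0.35 to 0.11) and Tnfrsf1a (-0.31 to 0.060). A pseudocount of 0.1 moved 19 named values by over 1.5 times. Depth is unknown, so no counting error is given, and 2 libraries a dose limit the precision.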
